A study of Homo sapiens with 6 samples.

Results

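The AKR1 aldo-keto reductases are the genes AKR1A1, AKR1B1, AKR1B10, AKR1C1, AKR1C2 and AKR1C3. These 6 genes were taken by symbol from the 19727 genes of the deposited expression table, and all 6 were found in it. The table holds poly(A)-selected RNA-seq of DU145, a human prostate cancer line, in 2 groups of 3 libraries. The lentivirus-NC group (labelled NC, genotype normal) carried the control lentivirus, and the lentivirus-circCSPP1 group (labelled OE) carried a lentivirus that overexpresses circCSPP1, a circular RNA made from exons of CSPP1. Both were puromycin-selected stable lines, with no second independently made line per group described, so the effect of the circular RNA and any other difference between the 2 lines cannot be told apart. The labels do not say that the 3 libraries of a group came from separate cultures, and p-values then measure only the spread between these libraries.

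Aldo-keto reductases use NADPH to reduce aldehydes and ketones to alcohols. AKR1A1 (aldehyde reductase) and AKR1B1 (aldose reductase) act on small aldehydes and sugars, AKR1B10 on aliphatic aldehydes and retinal, and AKR1C1, AKR1C2 and AKR1C3 on the keto groups of steroids and prostaglandins. In prostate cells AKR1C3 makes testosterone from androstenedione, AKR1C2 turns dihydrotestosterone into a weak androgen and AKR1C1 inactivates progesterone. AKR1B10 and the AKR1C genes are also known targets of NRF2, the transcription factor of the antioxidant response that KEAP1 holds in check.

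The AKR1C genes are near-identical copies, which bears on every level given for them. They lie side by side on chromosome 10 (GRCh38, GENCODE release 29), AKR1C1 at chr10:4963253-4983283 on the plus strand, AKR1C2 at chr10:4987400-5018031 on the minus strand and AKR1C3 at chr10:5035354-5107686 on the plus strand. Their coding sequences are each 972 nt long, and those of AKR1C1 and AKR1C2 were 98.0% identical, with 19 substitutions. AKR1C3 was 91.5% identical to AKR1C1 and 91.0% identical to AKR1C2. The following stretch of the coding sequence, bases 103 to 162 counted from the A of the start codon, is shown because 10 of the 19 differences between AKR1C1 and AKR1C2 fall in it. Capitals in AKR1C1 and AKR1C2 mark the bases that differ between this pair, and capitals in AKR1C3 mark the 7 bases that differ from AKR1C1.
AKR1C1: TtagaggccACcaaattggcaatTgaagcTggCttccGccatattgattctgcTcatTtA
AKR1C2: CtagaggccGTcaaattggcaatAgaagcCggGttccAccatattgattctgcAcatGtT
AKR1C3: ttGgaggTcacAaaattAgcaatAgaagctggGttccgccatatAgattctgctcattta
Over these bases a fragment can be assigned to its gene.

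The last 189 bases of the coding sequence, from base 784 to base 972, are shown for the opposite reason, since AKR1C1 and AKR1C2 do not differ in them at all. A fragment from inside this run cannot be assigned to either gene by its sequence. AKR1C3 differs there from both by 18 bases, in capitals.
AKR1C1 and AKR1C2: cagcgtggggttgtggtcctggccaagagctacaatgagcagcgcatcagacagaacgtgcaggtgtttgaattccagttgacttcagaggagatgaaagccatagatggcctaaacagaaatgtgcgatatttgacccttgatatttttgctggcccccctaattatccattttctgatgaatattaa
AKR1C3: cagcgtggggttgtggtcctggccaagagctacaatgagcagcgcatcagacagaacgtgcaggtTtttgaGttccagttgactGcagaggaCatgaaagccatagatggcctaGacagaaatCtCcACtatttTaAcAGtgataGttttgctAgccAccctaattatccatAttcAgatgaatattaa
Of the windows of 100 nt in the coding sequence, 21.0% of those of AKR1C1, 26.7% of those of AKR1C2 and 9.74% of those of AKR1C3 occurred unchanged in a transcript of another gene. At 50 nt the shares were 54.5%, 57.2% and 23.0%, and at 150 nt they were 4.98%, 7.65% and 2.67%. The other genes were in each case members of the AKR1C cluster. The read length and the handling of reads that match several genes are not given in the sources used here, so the levels of AKR1C1 and AKR1C2 in particular are uncertain.

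**Figure D1:**
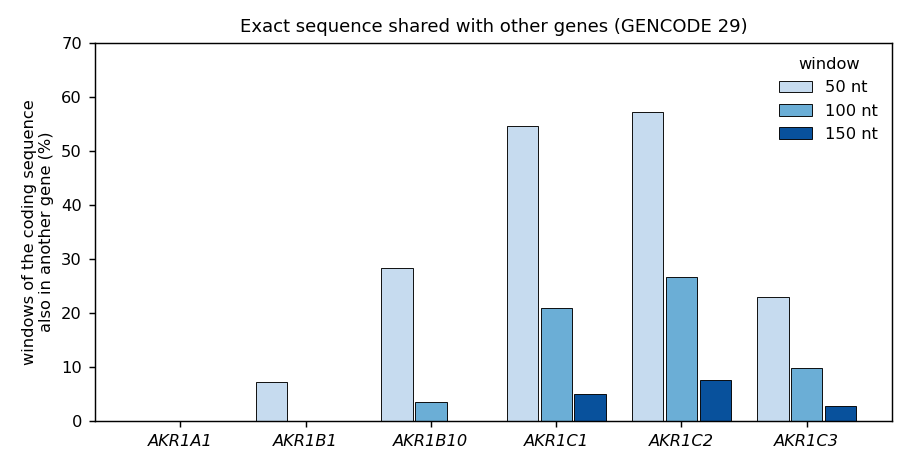
Share of windows of each member's coding sequence that occur unchanged in a transcript of another gene (y axis, percent), for windows of 50, 100 and 150 nt. AKR1C1 and AKR1C2 share the most sequence, with 54.5% and 57.2% at 50 nt, while AKR1A1 shares none at any of the 3 lengths.

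The other members are more distinct. AKR1A1 (chr1:45550543-45570049, plus strand) shared no window of 50 nt with another gene and was 53.2% to 59.5% identical to the other members over the coding sequence. AKR1B1 (chr7:134442350-134459284, minus strand) shared 7.21% of its 50-nt windows, all with its own pseudogenes, and no window of 100 nt. AKR1B10 (chr7:134527592-134541408, plus strand), 76.1% identical to AKR1B1, shared 28.4% of 50-nt windows and 3.52% of 100-nt windows with AKR1B15 or the pseudogene AKR1B10P1.

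Levels are in FPKM, fragment numbers scaled to transcript length and library size, which allows genes to be compared per length. Depth read back from the steps between low values came to 28800000 to 36400000 fragments in the lentivirus-NC libraries and 28900000 to 34600000 in the lentivirus-circCSPP1 libraries. CSPP1, the gene that gives rise to the overexpressed circle, was at 9.11, 10.08 and 9.44 FPKM in the lentivirus-NC libraries and at 14.47, 22.76 and 21.36 FPKM in the lentivirus-circCSPP1 libraries. Circular and linear transcripts share these exons. The libraries were poly(A)-selected, and a circular RNA is a closed loop without a poly(A) tail. Which transcripts the higher level comes from was not tested. The paper reported that its vectors changed circCSPP1 by qRT-PCR and left CSPP1 mRNA and protein unchanged. Those measures are unlike the gene-level FPKM given here. The lentivirus-circCSPP1 libraries were less alike than the controls, with correlations of log2 values of 0.970 to 0.990 against 0.991 to 0.992. Their departures from the group mean went with transcript GC content, with Spearman correlations over genes of 0.784, -0.733 and -0.482 in replicates 1, 2 and 3, against -0.0565 to 0.0979 in the controls. The GC content of the longest coding transcript was 40.2% to 42.4% in the AKR1C genes, 47.5% in AKR1B10, 53.4% in AKR1B1 and 56.7% in AKR1A1. All 5 epithelial markers were above 1 FPKM, but their summed level was 2271 to 2361 FPKM in the lentivirus-NC libraries and 1046 to 1278 FPKM in the lentivirus-circCSPP1 libraries. Of the markers of other cell types, 3 of 3 basal, 3 of 4 leukocyte, 4 of 5 fibroblast and 3 of 3 endothelial markers stayed under 1 FPKM in every library.

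The 6 members were expressed at very unequal levels in the same cells. AKR1B1 was the highest, at a mean of 288 ± 8.47 FPKM (SD, n = 3) in the lentivirus-NC group, ahead of AKR1A1 at 83.9 ± 4.50 FPKM, AKR1C3 at 6.98 ± 0.546 FPKM and AKR1C1 at 1.21 ± 0.162 FPKM. AKR1C2 and AKR1B10 came last, at 0.30 ± 0.0173 and 0.233 ± 0.0929 FPKM, and their libraries overlapped, so that the order of these 2 was not resolved. Among all genes of the table AKR1B1 lay at the 98.2 to 98.7 percentile, AKR1A1 at 92.3 to 93.9 and AKR1C3 at 47.9 to 56.6. In the lentivirus-circCSPP1 group the order of AKR1B1, AKR1A1 and AKR1C3 was the same, while AKR1C1 (0.48 to 0.62 FPKM) and AKR1B10 (0.19 to 0.87 FPKM) overlapped.

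**Figure D2:**
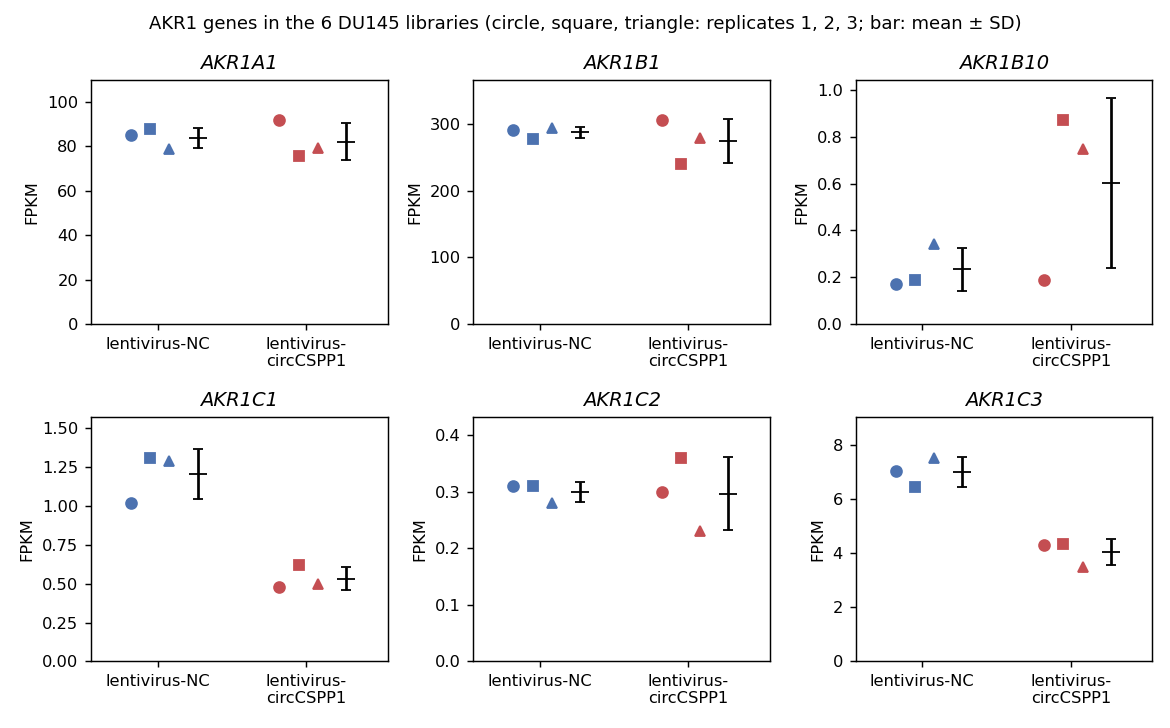
FPKM of the 6 AKR1 members in each library (points, 3 lentivirus-NC and 3 lentivirus-circCSPP1) with the group mean and SD, each member on its own y axis. The groups are apart for AKR1C1 and AKR1C3, with every lentivirus-circCSPP1 library below every control, and overlap for the other 4 members. Of 17116 genes in a fit with no minimum level, the groups were apart in 30.7%.

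The comparison of the lines with and without circCSPP1 overexpression asked which transcripts differ between them. AKR1C3 was the one member that passed the test, and it was lower in the lentivirus-circCSPP1 group. The members AKR1A1 and AKR1B1 differed by less than the spread between libraries, and AKR1B10, AKR1C1 and AKR1C2 had a mean below the minimum of 1 FPKM set for testing. The test was limma on log2(FPKM + 1) with Benjamini-Hochberg adjustment over 12322 genes and a threshold of 0.05. Of these genes 11.4% passed in either direction and 6.66% passed as lower, beside which stands the 1 of 3 tested members.

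AKR1C3, the enzyme that makes testosterone and prostaglandin F, was at 7.01, 6.42 and 7.51 FPKM in the lentivirus-NC libraries and at 4.29, 4.33 and 3.48 FPKM in the lentivirus-circCSPP1 libraries. The groups did not overlap, as was so for 30.7% of the 17116 genes in a fit with no minimum level. The highest lentivirus-circCSPP1 library lay well under the lowest control. The mean fell from 6.98 ± 0.546 to 4.03 ± 0.480 FPKM (SD, n = 3), a change of -42.2%. On the log2(FPKM + 1) scale the difference was -0.67 (SE 0.12, 95% interval -0.95 to -0.38, limma adjusted p = 0.016). The estimated number of fragments behind a library's value was 180 to 494 in the controls and 98 to 271 in the lentivirus-circCSPP1 libraries. These ranges span the shortest and longest complete coding transcript, since the length the authors used is not given. With 1 library left out the difference stayed between -0.72 and -0.59, but the adjusted p rose above the threshold without lentivirus-NC replicate 1 (0.078), replicate 2 (0.062) or replicate 3 (0.079) and without lentivirus-circCSPP1 replicate 3 (0.066). With a correction for transcript GC content and length the difference of AKR1C3 was -0.61 (limma adjusted p = 0.031), and the part of the epithelial marker decline in it was not tested. For AKR1C3 alone, exact permutation of the group labels over the 6 libraries gave a two-sided p = 0.1, the smallest this design allows.

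AKR1C1, the progesterone-inactivating copy, was low in both groups. It was at 1.02, 1.31 and 1.29 FPKM in the lentivirus-NC libraries and at 0.48, 0.62 and 0.50 FPKM in the lentivirus-circCSPP1 libraries. Here too each lentivirus-circCSPP1 library was below each control. The mean went from 1.21 ± 0.162 to 0.533 ± 0.0757 FPKM (SD, n = 3), 2.26 times higher in the controls. In a fit with no minimum level, over 17116 genes, AKR1C1 differed by -0.52 on the log2(FPKM + 1) scale (SE 0.078, 95% interval -0.71 to -0.34, limma adjusted p = 0.015). That scale understates the change of a gene near 1 FPKM, and with a pseudocount of 0.1, chosen after the data were seen, the difference was -1.04 (95% interval -1.51 to -0.58, limma adjusted p = 0.026). With 1 library left out of the fit with no minimum level the adjusted p of AKR1C1 was 0.024 to 0.078, and it passed in 3 of 6 such fits. In that fit 8.2% of genes passed in either direction and 5.13% as lower, and the groups did not overlap for 30.7% of genes. AKR1C1 rests on few fragments, an estimated 26 to 40 per control library and 12 to 18 per lentivirus-circCSPP1 library by its shortest coding transcript, or 200 to 315 and 97 to 144 by its longest.

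AKR1C2, the dihydrotestosterone-reducing copy, was at 0.31, 0.31 and 0.28 FPKM in the lentivirus-NC libraries and at 0.30, 0.36 and 0.23 FPKM in the lentivirus-circCSPP1 libraries. The groups overlapped and the means, 0.30 ± 0.0173 and 0.297 ± 0.0651 FPKM (SD, n = 3), lay within the spread. In the fit with no minimum level the AKR1C2 difference was -0.0048 on the log2(FPKM + 1) scale (95% interval -0.12 to 0.11, limma adjusted p = 0.97). The estimated fragments were 7 to 47 per library, and with a pseudocount of 0.1 the 95% interval widened to -0.50 to 0.45.

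AKR1B10, which reduces retinal and aliphatic aldehydes, was the one member with a higher mean in the lentivirus-circCSPP1 group. It was at 0.17, 0.19 and 0.34 FPKM in the lentivirus-NC libraries and at 0.19, 0.87 and 0.75 FPKM in the lentivirus-circCSPP1 libraries. Replicates 2 and 3 of the lentivirus-circCSPP1 group lay above all controls and replicate 1 lay among them, so the groups overlapped (exact two-sided permutation p = 0.3). In the fit with no minimum level AKR1B10 differed by 0.35 on the log2(FPKM + 1) scale (95% interval -0.05 to 0.76, limma adjusted p = 0.26). With 1 library left out of that fit the limma adjusted p of AKR1B10 was 0.016 to 0.51, and it passed in 1 of 6 such fits. That was the fit without lentivirus-circCSPP1 replicate 1, where the difference was 0.56. A library held an estimated 8 to 48 AKR1B10 fragments.

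AKR1A1 and AKR1B1, the abundant and widely expressed members, did not pass the test. AKR1A1 was at 85.15, 87.64 and 78.90 FPKM in the lentivirus-NC libraries and at 91.70, 75.47 and 79.46 FPKM in the lentivirus-circCSPP1 libraries. The groups interleaved, with a difference of -0.03 on the log2(FPKM + 1) scale (SE 0.098, 95% interval -0.26 to 0.20, limma adjusted p = 0.87). AKR1B1, which reduces glucose to sorbitol, was at 290.86, 278.03 and 294.03 FPKM in the lentivirus-NC libraries and at 305.69, 239.69 and 278.67 FPKM in the lentivirus-circCSPP1 libraries. The 3 controls of AKR1B1 sat close together inside the wider range of the other group, in which replicate 1 was the highest and replicate 2 the lowest, as for AKR1A1. The AKR1B1 difference was -0.07 (SE 0.098, 95% interval -0.30 to 0.16, limma adjusted p = 0.68). The estimated fragments per library numbered at least 2338 for AKR1A1 and at least 11282 for AKR1B1.

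**Figure D3:**
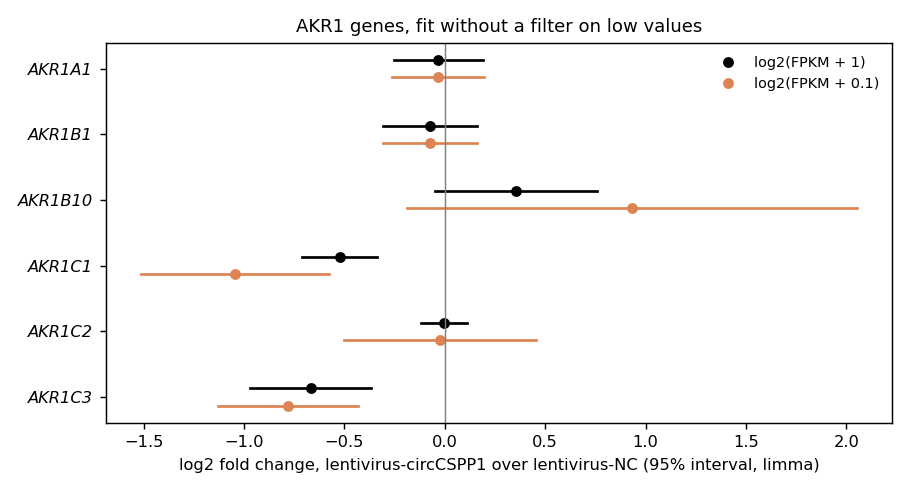
Difference between lentivirus-circCSPP1 and lentivirus-NC (x axis) for the 6 AKR1 members, points with 95% intervals from limma, n = 3 libraries per group. All 6 members are from the fit with no minimum level, drawn on the log2(FPKM + 1) scale and on the log2(FPKM + 0.1) scale. On the log2(FPKM + 1) scale the intervals of AKR1C1 (-0.71 to -0.34) and AKR1C3 (-0.97 to -0.37) lie below 0. Those of the other 4 members include 0, and the same holds on the log2(FPKM + 0.1) scale.

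Since fragments of the AKR1C genes can be divided among them in more than one way, the 3 genes were also summed. Each FPKM value was multiplied by the length of the gene's longest coding transcript in kilobases. The lengths behind the FPKM values are not given in the sources used here. Complete coding transcripts of AKR1C1 run from 858 to 6705 nt, so its weight in the sum is uncertain. The sum, in FPKM times kilobases, was 20.7, 21.5 and 23.3 in the lentivirus-NC libraries and 12.1, 13.3 and 10.5 in the lentivirus-circCSPP1 libraries. The groups did not overlap, and the mean was 1.82 times higher in the controls, 21.8 ± 1.32 against 11.98 ± 1.42 (SD, n = 3). The log2 difference of the sum was -0.87, with an exact two-sided permutation p = 0.1, the smallest that 3 against 3 allows. A plain sum of FPKM gave -0.81, and leaving out 1 library gave -0.95 to -0.78. AKR1C3 made up 79.9% to 84.1% of the plain sum in the controls and 81.5% to 84.6% in the other group, so its share overlapped between groups. The share of AKR1C1 was 12.2% to 16.3% in the controls and 9.47% to 11.9% in the lentivirus-circCSPP1 libraries, and that of AKR1C2 was 3.08% to 3.86% and 5.46% to 6.78%.

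**Figure D4:**
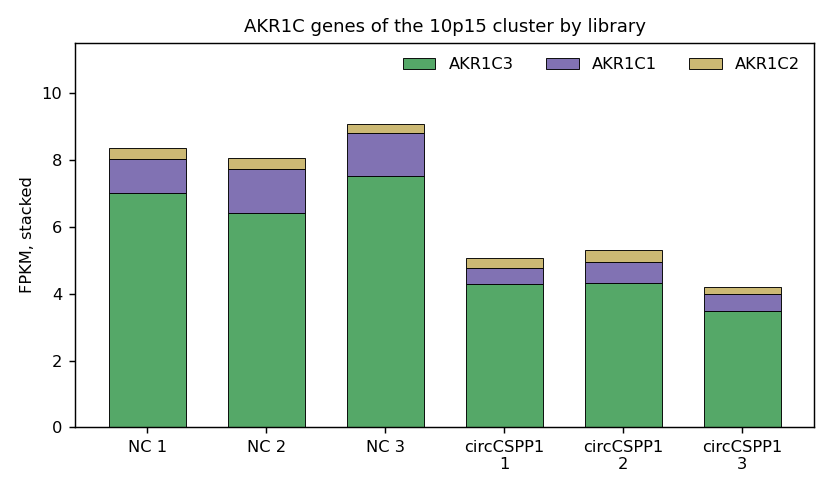
Stacked FPKM of AKR1C1, AKR1C2 and AKR1C3 in each of the 6 libraries (y axis from 0), grouped as lentivirus-NC and lentivirus-circCSPP1. The stacks reach 8.04 to 9.08 FPKM in the controls and 4.21 to 5.31 FPKM in the lentivirus-circCSPP1 libraries, and AKR1C3 is the largest layer in each.

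Whether members changed by different amounts was tested on the ratio of each pair within a library, for 15 pairs. In 8 pairs the groups did not overlap, each with an exact two-sided permutation p = 0.1 (0.19 after adjustment over the 15), so none could pass a threshold of 0.05. These were the pairs of AKR1C1 or AKR1C3 with AKR1A1, AKR1B1 or AKR1C2, the pair of AKR1B10 and AKR1C1, and the pair of AKR1C1 and AKR1C3. Each held AKR1C1 or AKR1C3, whose own groups were apart, so these pairs are not separate results. The share of such pairs among all genes of the table was not computed. The log2 ratio of AKR1C1 to AKR1C2 was 2.0 ± 0.25 in the controls and 0.86 ± 0.23 in the lentivirus-circCSPP1 libraries (SD, n = 3), a difference of -1.14 between 2 genes with few distinguishing bases. The log2 ratio of AKR1C1 to AKR1C3 was -2.54 ± 0.24 in the controls and -2.92 ± 0.21 in the other group, a difference of -0.38. Against the abundant AKR1B1, the log2 ratio of AKR1B1 to AKR1C3 was higher by 0.72 in the lentivirus-circCSPP1 group. The ratio of AKR1A1 to AKR1B1 differed by 0.04 on the log2 scale (exact two-sided permutation p = 0.7).

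The remaining aldo-keto reductases of the genome numbered 10, of which 4 were tested and 1 passed, beside 11.4% of all tested genes. KCNAB2, a cytoplasmic subunit of voltage-gated potassium channels with the aldo-keto reductase fold, was at 13.54, 13.34 and 15.16 FPKM in the lentivirus-NC libraries and at 6.43, 3.03 and 4.45 FPKM in the lentivirus-circCSPP1 libraries. The groups did not overlap, and the difference of -1.46 on the log2(FPKM + 1) scale (SE 0.21, limma adjusted p = 0.0082) stands beside -0.67 for AKR1C3. AKR1E2, which neighbours the AKR1C cluster, was at 15.36 to 18.79 FPKM in the controls and 12.42 to 15.70 FPKM in the other group (-0.26, limma adjusted p = 0.22). AKR7A2, which reduces succinic semialdehyde, differed by -0.26 (limma adjusted p = 0.34) and the channel subunit KCNAB3 by -0.38 (limma adjusted p = 0.11). AKR1D1, the steroid beta-reductase of liver, was listed at 0 in all libraries, AKR1C4 was at 0.04 FPKM in lentivirus-NC replicate 3 and at 0 elsewhere, and AKR1B15, AKR7A3, AKR7L and KCNAB1 were under the minimum level.

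Of the NRF2 regulators, 2 of 12 rose and 0 fell by limma's adjusted threshold, beside 4.69% of all tested genes higher and 6.66% lower. At an unadjusted p under 0.05 the numbers were 6 and 1, beside 12.2% and 16.0% of all tested genes. NFE2L2, which encodes NRF2, was at 24.73, 43.33 and 22.50 FPKM in the lentivirus-NC libraries and at 54.16, 71.67 and 63.86 FPKM in the lentivirus-circCSPP1 libraries. The groups were apart although replicate 2 stood above the other controls. The NFE2L2 difference was 1.09 on the log2(FPKM + 1) scale (limma adjusted p = 0.029). With 1 library left out NFE2L2 passed in 2 of 6 fits (limma adjusted p 0.016 to 0.11). With all libraries kept, it passed in 11 of 12 alternatives and not without moderation of the variance (limma adjusted p = 0.13). MAFG, a small MAF partner with which NRF2 binds DNA, was at 48.39 to 62.32 FPKM in the controls and 102.63 to 132.78 FPKM in the other group (1.04, limma adjusted p = 0.0053). KEAP1, which directs NRF2 to degradation, was at 48.33 to 67.40 and 76.25 to 116.00 FPKM and did not pass the test (0.68, limma adjusted p = 0.051). With all libraries kept, KEAP1 passed in 4 of 12 alternatives, with limma adjusted p from 0.0097 to 0.17. Among those 4 were the correction for GC content and length (0.0097) and rescaling to TPM (0.043). With 1 library left out KEAP1 passed in 2 of 6 fits (limma adjusted p up to 0.18). The other partners MAFF (0.55) and MAFK (0.50) and the repressor BACH1 (-0.09) did not pass either, with limma adjusted p from 0.079 to 0.90. The remaining 6 regulators, NFE2L1 (0.44), NFE2L3 (-0.09), CUL3 (-0.14), RBX1 (-0.43), BTRC (-0.17) and GSK3B (-0.27), did not pass, with limma adjusted p from 0.058 to 0.57.

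Of 36 NRF2 target genes outside the AKR1 family, 35 were tested, of which 14 rose and 1 fell, beside 4.69% and 6.66% of all tested genes, and the median difference was 0.17 beside -0.03 over all tested genes. With the correction for GC content and length 16 rose and 4 fell, and of all 12322 tested genes 1809 rose and 1710 fell. SQSTM1, an autophagy receptor that binds KEAP1, rose from 541 ± 15.8 to 1643 ± 50.5 FPKM (SD, n = 3), a difference of 1.6 (limma adjusted p = 8.5e-05). OSGIN1 rose from 16.2 ± 1.46 to 44.6 ± 4.29 FPKM (1.41) and SRXN1, which repairs oxidised peroxiredoxins, from 135 ± 3.04 to 261 ± 26.8 FPKM (0.94). NR0B1, an orphan nuclear receptor, rose from 0.660 ± 0.056 to 2.45 ± 0.68 FPKM (1.04), with a limma adjusted p of 0.0501, just over the threshold, without lentivirus-NC replicate 2. The lowest difference on the list was that of GSTM3, a glutathione transferase, at -0.44, so that 0 of 35 listed targets were as low as AKR1C3 at -0.67. Of all tested genes 404 of 12322, or 3.28%, were lower than AKR1C3.

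**Figure D5:**
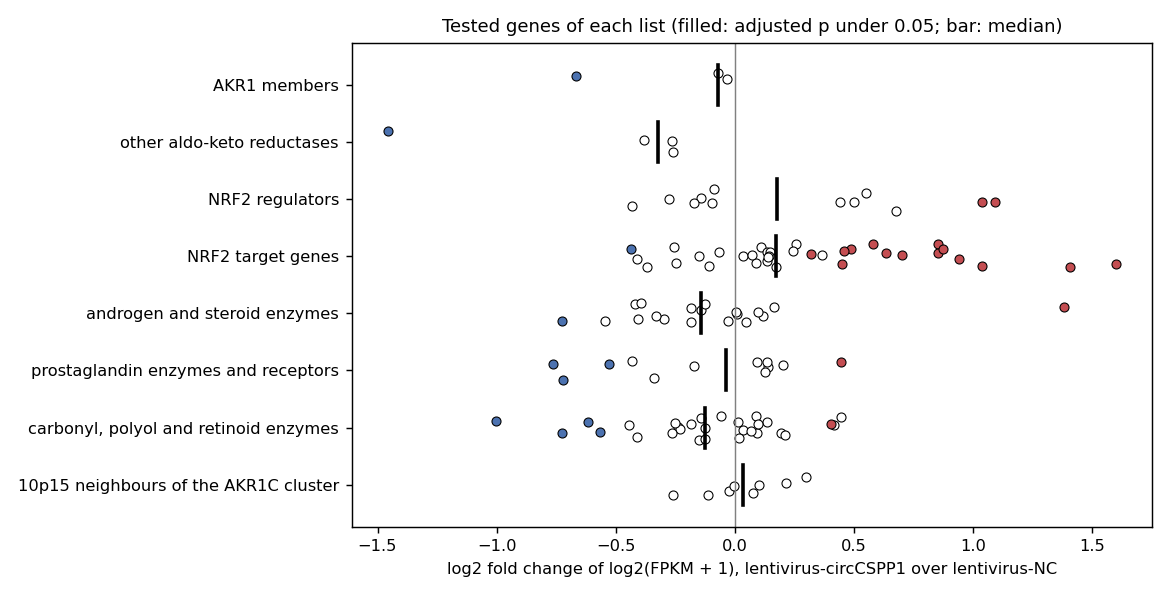
Difference between lentivirus-circCSPP1 and lentivirus-NC on the log2(FPKM + 1) scale for the tested genes of each list, 1 point per gene, with the median of each list. The 35 NRF2 targets have a median of 0.17 and the 3 tested AKR1 members one of -0.07. AKR1C3 is the lowest of these members, at -0.67.

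The antioxidant response element through which NRF2 acts has the core TGACNNNGC, or GCNNNGTCA on the opposite strand. Promoter windows of RefSeq (GRCh38.p14, 250 bases before to 50 bases after a start) were found for 5 of 6 members, all except AKR1B10, in 7 windows, and 0 of 7 held the core on either strand. Of all promoter windows 13.3% held it, as did 10 of the 31 windows (32.3%) of the NRF2 target genes. Counted by gene, 9 of the 25 NRF2 target genes with an entry had such a window. No match says only that these letters are not in these windows.

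Among enzymes that share steroid substrates with AKR1C1 to AKR1C3, 19 of 39 were tested, 1 rose and 1 fell, with a median difference of -0.14. That share, 10.5%, is close to the 11.4% of all tested genes. CYP1B1, which hydroxylates oestrogens, rose from 13.2 ± 0.499 to 35.9 ± 1.93 FPKM (SD, n = 3), a difference of 1.38 (limma adjusted p = 0.0011). HSD3B7, a steroid dehydrogenase of bile acid synthesis, fell from 47.2 ± 2.65 to 28.4 ± 5.23 FPKM (-0.73, limma adjusted p = 0.017, 0.0018 to 0.081 with 1 library left out).

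Among 25 enzymes and receptors of the prostaglandin pathway, in which AKR1C3 and AKR1B1 act as prostaglandin F synthases, 12 were tested, 1 rose and 3 fell, beside 4.69% and 6.66% of all tested genes. PTGES, which makes prostaglandin E, fell from 109 ± 2.38 to 63.9 ± 6.54 FPKM (SD, n = 3), a difference of -0.76 (limma adjusted p = 0.0049). The prostaglandin importer SLCO2A1 fell by 0.72 (limma adjusted p = 0.016) and the receptor PTGER4 fell by 0.53 (limma adjusted p = 0.031), while the thromboxane synthase TBXAS1 rose by 0.45 (limma adjusted p = 0.050, just under the threshold). Of these 4 calls, that of PTGES held with each library left out, and those of SLCO2A1, PTGER4 and TBXAS1 held in 2, 1 and 1 of 6 such fits, with adjusted p up to 0.080, 0.13 and 0.19. With all libraries kept, TBXAS1 lost its call in 6 of 11 alternatives (limma adjusted p up to 0.11) and PTGER4 in 3 of 11 (up to 0.086).

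Among 37 enzymes and binding proteins of carbonyl, polyol and retinoid metabolism, the substrates of AKR1A1, AKR1B1 and AKR1B10, 29 were tested, 1 rose and 4 fell (17.2%, beside 11.4% of all tested genes), with a median difference of -0.12. GSTA4, which conjugates the lipid aldehyde hydroxynonenal, fell from 14.1 ± 1.15 to 6.60 ± 1.45 FPKM (SD, n = 3), a difference of -1.0 (limma adjusted p = 0.011). The retinoic acid carrier CRABP2 fell by 0.73 (limma adjusted p = 0.023), the fructokinase KHK fell by 0.61 (limma adjusted p = 0.036) and the aldehyde dehydrogenase ALDH7A1 fell by 0.56 (limma adjusted p = 0.012). With 1 library left out these 4 calls held in 3, 1, 1 and 4 of 6 fits, with adjusted p up to 0.064, 0.10, 0.14 and 0.077. With all libraries kept, KHK lost its call in 4 of 11 alternatives, among them the fit with no minimum level (limma adjusted p up to 0.095).

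The genes next to the AKR1C cluster on 10p15 were mixed in direction, 4 higher and 4 lower in the lentivirus-circCSPP1 group. Of 14 neighbours these 8 were tested, and 0 passed limma's adjusted threshold, beside 11.4% of all tested genes. At an unadjusted p under 0.05, 1 was higher, beside 12.2% of all tested genes. The median difference was 0.04. Their differences on the log2(FPKM + 1) scale ran from -0.26 for AKR1E2 to 0.30 for ASB13. GDI2 (-0.11), NET1 (-0.03) and FBH1 (-0.005) were lower and TASOR2 (0.21), KLF6 (0.10) and ANKRD16 (0.08) higher.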

How the data were processed

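Poly(A) RNA of 6 DU145 libraries was sequenced paired-end. The authors deposited 1 table of FPKM per gene and library; per the labels' processing notes the genome was hg38, and the aligner, counter, annotation and read length are not given in the sources used here. FPKM carries no counts, so depth was estimated from the step between low values, using genes whose only transcript is shorter than 800 nt. Of these values 92.8% to 98.7% fell within 0.15 of a step. Fragment numbers are estimates by the shortest and longest complete coding transcript of a gene. Groups followed the labels, and all 6 columns were used.

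The main test was limma 3.58.1 (R 4.3.3, trend) on log2(FPKM + 1) for genes averaging 1 FPKM or more, two-sided, adjusted by Benjamini-Hochberg. The code was tested on simulated data. Single values were compared by exact permutation tests over libraries. The members and lists were chosen with earlier results of these data known. Named genes were all members, the NRF2 regulators, tested aldo-keto reductases, tested 10p15 neighbours, the 3 genes most correlated with each tested member, and in each other list up to 4 passing genes with the largest difference and groups apart. GSTM3 was named after its value was seen. 1 further gene of the naming rule is not reported here. Sequence identity was computed on GENCODE 29 coding sequences by pairwise alignment (Biopython 1.88), and promoters came from RefSeq. Alternatives were other pseudocounts (0.1, 0.01), filters (none, 5 FPKM) and scalings, no moderation, a replicate block, a loess correction for GC content and length, and leaving out each library.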

Additional observations from a re-analysis of the deposited data

How the results depend on the processing

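AKR1C3 kept its direction in all 18 alternatives tried and passed in the 12 that kept all libraries (limma adjusted p 0.016 to 0.045), but in 2 of 6 that left 1 out. The number of members that passed was 1, it was 2 with no minimum level and with no minimum level and a pseudocount of 0.1 (AKR1C1 added), and it ranged from 0 to 1 with 1 library left out. Leaving out lentivirus-circCSPP1 replicate 2 turned the differences of AKR1A1 to 0.026 and AKR1B1 to 0.021 (limma adjusted p 0.88 and 0.87), and over the 6 fits with 1 library left out they ran from -0.113 to 0.026 for AKR1A1 and from -0.153 to 0.021 for AKR1B1. Genes that passed numbered 1399 (578 higher, 821 lower). Without moderation of the variance 834 passed, with loess correction 3519 (1809 higher, 1710 lower), and with 1 library left out 300 to 3512, the extremes being lentivirus-NC replicate 1 and lentivirus-circCSPP1 replicate 1. NRF2 targets that passed numbered 15, 9 without moderation and 6 to 20 with 1 library left out. Steroid enzymes numbered 2, 1 without moderation, 6 with loess correction and 1 to 6 with 1 library left out. Prostaglandin genes numbered 4, 1 with a minimum of 5 FPKM, 1 without moderation and 1 to 4 with 1 library left out. Carbonyl, polyol and retinoid genes numbered 5, 1 without moderation, 11 with loess correction and 0 to 11 with 1 library left out. The causes of these shifts were not tested. The log2 group difference of the summed AKR1C level, -0.87, was -0.81 as a plain sum of FPKM, -0.85 with median-ratio scaling and -0.98 for AKR1C1 and AKR1C2 without AKR1C3, and the groups stayed apart.

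The depositors' design text calls the samples paired without saying what a pair shares. The data do not show that the replicate numbers pair the libraries: same-numbered libraries deviated from their group means with correlations of 0.073, 0.0065 and 0.057, and lentivirus-circCSPP1 replicate 2 correlated best with lentivirus-NC replicate 3. With the replicate number as a block, AKR1C3 differed by -0.67 (limma adjusted p = 0.042), and 923 genes passed (364 higher, 559 lower), 2752 with the loess correction as well (1398 higher, 1354 lower). Under the block KEAP1 passed (limma adjusted p = 0.030), PTGER4, TBXAS1 and KHK did not (0.074, 0.11 and 0.064), and 13 NRF2 targets rose and 0 fell. Under the block 2 prostaglandin and 3 carbonyl, polyol and retinoid genes passed, and under the block with loess correction 5 steroid and 8 carbonyl, polyol and retinoid genes.

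The members below 1 FPKM rest on few fragments, which limits what can be said of them. AKR1C2 and AKR1B10 rest on under 50 per library by the lengths of their complete coding transcripts, and other annotated lengths were not tried. With 3 libraries per group the smallest exact p for 1 value is 0.1.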

Other observations

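The genes whose levels most resembled those of AKR1C3 over the 6 libraries, by Pearson correlation of log2(FPKM + 1) given as a description, were CSGALNACT1 (0.995), a chondroitin sulfate synthesis enzyme at a mean of 2.60 FPKM in the lentivirus-NC group and 1.69 FPKM in the lentivirus-circCSPP1 group, NPIPB13 (0.991), a member of a multigene family with near-identical copies, and EIF5A2 (0.991), a translation factor at 1.75 and 0.947 FPKM. All were lower in each lentivirus-circCSPP1 library than in each control, so the correlation largely restates the group difference. AKR1A1 most resembled FBXO41 (0.996), YIF1B (0.994) and USP11 (0.988), and AKR1B1 most resembled PTOV1 (0.982), TOR2A (0.982) and ITPK1 (0.981). The levels of YIF1B, 44.73, 47.10 and 39.41 FPKM in the controls and 51.87, 35.85 and 40.93 FPKM in the other group, show the shape these genes share, with lentivirus-circCSPP1 replicate 1 the highest and replicate 2 the lowest. Those 2 libraries also departed from their group with transcript GC content in opposite directions, by Spearman correlations of 0.784 and -0.733, and the part of GC content in this likeness was not tested.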
